A study of Mus musculus with 78 samples.

Results

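Dnmt1, Uhrf1 and Hells, the core genes of maintenance DNA methylation, were followed across 30 RNA-seq libraries of mouse embryos. They were chosen by name, as 3 of the 22563 genes shared by the 3 expression tables of the series, and all 3 passed the filter on low values. The series asked how DNA methylation, transcription and chromatin folding change from the blastocyst to gastrulation, and held 78 samples, of which 48 (STEM-seq, Hi-C and MethylC-seq) are not analysed here. All embryos of the libraries used here came from C57BL/6N mothers and DBA/2N fathers, with no mutant or drug-treated group. The table of embryos grown in the uterus held 22 libraries, 2 for each of 11 tissues: inner cell mass and trophectoderm at E3.5, inner cell mass at E4.0, epiblast and visceral endoderm at E5.5 and again at E6.5, and at E7.5 the endoderm, mesoderm, primitive streak and ectoderm. A second table held 2 libraries each of epiblast and visceral endoderm separated after 4 days of culture. The other culture table held 2 libraries each of embryos after 1 and 2 days. By the protocol, cultured embryos were flushed at E4.5 and grown in a medium with 20% fetal bovine serum, but the column names of the 1-day and 2-day table carry E40. The labels of those samples also give genomic DNA as the molecule, although their titles say RNA-seq. The labels call the embryos of 1 and 2 days whole embryos, whereas the protocol has the inner cell mass isolated, so they are called embryos here. Levels are FPKM, fragments scaled to transcript length and to library size, and were compared only within a table.

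At replication a methylated CpG becomes hemimethylated, with the mark on the parental strand alone. Uhrf1, a ubiquitin ligase that binds hemimethylated CpGs and a methylated lysine of histone H3, ubiquitylates histone H3 and so brings in Dnmt1, which copies the mark onto the new strand. Hells, also called Lsh, is an SNF2-family helicase-like remodeller that works with Cdca7 and is needed for full methylation of repeats and silenced genes. In the oocyte and early cleavage embryo a shorter Dnmt1 protein is made from an oocyte-specific first exon, and Uhrf1 is held in the cytoplasm by Dppa3, also called Stella. A level of gene expression as measured here does not part the oocyte and somatic forms of Dnmt1 and says nothing of where the proteins are.

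Genes needed in S phase often carry sites for E2F factors near their starts, so the 250 bases before each annotated start were searched, on both strands, for TTTCCCGC, TTTGGCGC, TTTGCCGC and TTTCGCGC. RefSeq (GRCm38.p6) gave 6 starts for the 3 genes, 3 of them for Dnmt1, 2 for Uhrf1 and 1 for Hells. Each gene had 1 window with such a word, shown here with 11 bases on each side and the word in capitals, read 5′ to 3′ along the gene's strand. They are given because each gene has 1 of the searched words in front of a start, TTTCGCGC for Dnmt1 and Uhrf1 and TTTCCCGC for Hells.
Dnmt1: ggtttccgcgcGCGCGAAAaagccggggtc
Uhrf1: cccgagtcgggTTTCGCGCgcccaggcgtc
Hells: gaccaccgggtTTTCCCGCgaaagagaagc
The Dnmt1 stretch lay at chr9:20952824-20952853 on the minus strand, before the third start of the gene, and held TTTCGCGC on the opposite strand, 219 to 212 bases upstream. The Uhrf1 stretch lay at chr17:56304117-56304146 on the plus strand, 185 to 178 bases before the second start. The Hells stretch lay at chr19:38930917-38930946 on the plus strand, 62 to 55 bases before the only start listed. These starts lay 7265, 976 and 728 bases inside the RefSeq gene records, which span 20907206 to 20959888 on chromosome 9 for Dnmt1, 56303337 to 56323486 on chromosome 17 for Uhrf1 and 38930262 to 38970470 on chromosome 19 for Hells. The 3 windows were rich in CpG, with 26, 30 and 28 CpGs for Dnmt1, Uhrf1 and Hells, against a median of 6 over all windows. A word was found in 3 of 6 windows of the 3 genes, against 611 of 32841 windows of all genes (1.86%) and 129 of the 3150 windows with 26 or more CpGs (4.10%). The cutoff of 26 was the lowest CpG count among the 3 windows with a word, so it was taken from the matches. The windows of the 3 genes without a word held 2, 7 and 10 CpGs, under that cutoff. Of the 33 windows of 30 replication genes, 8 held one (24.2%), as did 1 of 17 windows of mitosis genes (5.88%). Among 22 windows of partner genes of maintenance methylation, 2 held one (9.09%). A match describes letters in a window and was not tested as a binding site.

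The values were given as FPKM, so the number of reads behind each library is unknown. FPKM summed to between 272055 and 486836 per library in the uterus, with both E5.5 visceral endoderm libraries near the low end (272055 and 329462), and between 8457 and 10417 genes reached 1 FPKM. Markers of visceral endoderm and trophectoderm followed the labels, but not every marker list did. The 6 ectoderm markers summed to 97.6 and 60.7 FPKM in E7.5 ectoderm, against 145 and 118 FPKM in E6.5 epiblast. In E6.5 visceral endoderm the ectoderm markers summed to 116 and 125 FPKM. The 8 visceral endoderm markers summed to 4601 and 5846 FPKM in E5.5 visceral endoderm, against 164 and 135 FPKM in E5.5 epiblast. The 8 trophectoderm markers summed to 2494 and 3876 FPKM in E3.5 trophectoderm, against 220 and 326 FPKM in E3.5 inner cell mass. In bulk tissue fewer cells that make an RNA and less RNA per cell cannot be told apart. E3.5 and E4.0 cells came from superovulated mothers and were lysed directly, with immunosurgery used to isolate the inner cell mass. E5.5 to E7.5 tissue came from natural matings through an RNA column kit. Across implantation, stage and preparation therefore cannot be told apart. Trophectoderm may have been isolated differently from inner cell mass, and the part of this in the E3.5 comparison was not tested. Nothing in the labels says that paired libraries came from separate litters, so p-values measure a spread between libraries. That spread was estimated over all 15 groups, cultured ones included, and not only from the tissues compared.

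Dnmt1, the methyltransferase, was lowest in the E3.5 tissues and highest in the epiblast and in E7.5 ectoderm, primitive streak and mesoderm. At E3.5 it stood at 4.22 and 5.16 FPKM in inner cell mass, against 3.59 and 2.74 FPKM in trophectoderm. E4.0 inner cell mass had 18.6 and 16.0 FPKM, above both E3.5 tissues. At E5.5 the epiblast had 40.3 and 34.8 FPKM, against 9.18 and 6.96 FPKM in visceral endoderm, its lowest level in the uterus after E4.0. At E6.5 the epiblast had 37.1 and 31.4 FPKM, against 23.2 and 27.4 FPKM in visceral endoderm. At E7.5 endoderm had 18.2 and 22.7 FPKM, against 31.5 and 39.0 FPKM in ectoderm, 28.2 and 31.1 FPKM in mesoderm, and 30.2 and 34.4 FPKM in primitive streak. In descending order of the means, E5.5 epiblast (37.6 ± 3.85 FPKM, SD, n = 2), ectoderm, E6.5 epiblast, primitive streak and mesoderm each overlapped the next in line. E6.5 visceral endoderm (25.3 ± 2.98 FPKM, SD, n = 2) lay below all 5 of them. Endoderm overlapped E4.0 inner cell mass, and E5.5 visceral endoderm, E3.5 inner cell mass and E3.5 trophectoderm followed with no overlap between neighbours. The mean of E5.5 epiblast was 11.9 times that of E3.5 trophectoderm, and 9.60 times after the FPKM of each library were rescaled to 1 common sum.

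Uhrf1, the ligase that reads hemimethylated CpGs, was already high in E3.5 inner cell mass and low in trophectoderm. At E3.5 it stood at 57.3 and 48.5 FPKM in inner cell mass, against 7.33 and 12.5 FPKM in trophectoderm. E4.0 inner cell mass had 53.4 and 75.3 FPKM, overlapping E3.5 inner cell mass. At E5.5 the epiblast had 99.0 and 87.5 FPKM, against 26.9 and 23.8 FPKM in visceral endoderm. At E6.5 the epiblast had 80.4 and 77.7 FPKM, against 49.4 and 50.0 FPKM in visceral endoderm. At E7.5 endoderm had 63.3 and 53.7 FPKM, against 100.4 and 93.4 FPKM in ectoderm, 90.0 and 91.1 FPKM in mesoderm, and 93.1 and 84.5 FPKM in primitive streak. The order of means began with ectoderm (96.9 ± 4.96 FPKM, SD, n = 2), E5.5 epiblast, mesoderm and primitive streak, each overlapping the next. E6.5 epiblast stood alone below them. E4.0 inner cell mass, endoderm, E3.5 inner cell mass and E6.5 visceral endoderm formed a run of overlapping neighbours, and E5.5 visceral endoderm and E3.5 trophectoderm (9.89 ± 3.62 FPKM, SD, n = 2) lay apart at the bottom. The mean of ectoderm was 9.80 times that of trophectoderm, and after rescaling to a common sum E5.5 epiblast came first, at 7.71 times trophectoderm.

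Hells, the remodeller, had the widest range of the 3 genes and the largest spread between libraries of a tissue. At E3.5 it stood at 35.4 and 27.6 FPKM in inner cell mass, against 7.34 and 16.7 FPKM in trophectoderm. E4.0 inner cell mass had 70.3 and 157.9 FPKM, the widest gap in Hells FPKM of any pair grown in the uterus. At E5.5 the epiblast had 175 and 193 FPKM, against 24.2 and 27.0 FPKM in visceral endoderm. At E6.5 the epiblast had 138 and 120 FPKM, against 71.2 and 63.2 FPKM in visceral endoderm. At E7.5 endoderm had 53.0 and 55.7 FPKM, against 134 and 83.3 FPKM in ectoderm, 78.4 and 78.6 FPKM in mesoderm, and 110 and 120 FPKM in primitive streak. E5.5 epiblast (184 ± 12.2 FPKM, SD, n = 2) lay above every other tissue without overlap. E6.5 epiblast, primitive streak, E4.0 inner cell mass and ectoderm overlapped in sequence. Mesoderm, E6.5 visceral endoderm, endoderm, E3.5 inner cell mass, E5.5 visceral endoderm and trophectoderm then followed, each apart from the next. Epiblast at E5.5 had 15.3 times the mean of trophectoderm, 12.68 times after rescaling to a common sum and 25.1 times without the second trophectoderm library.

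**Figure D1:**
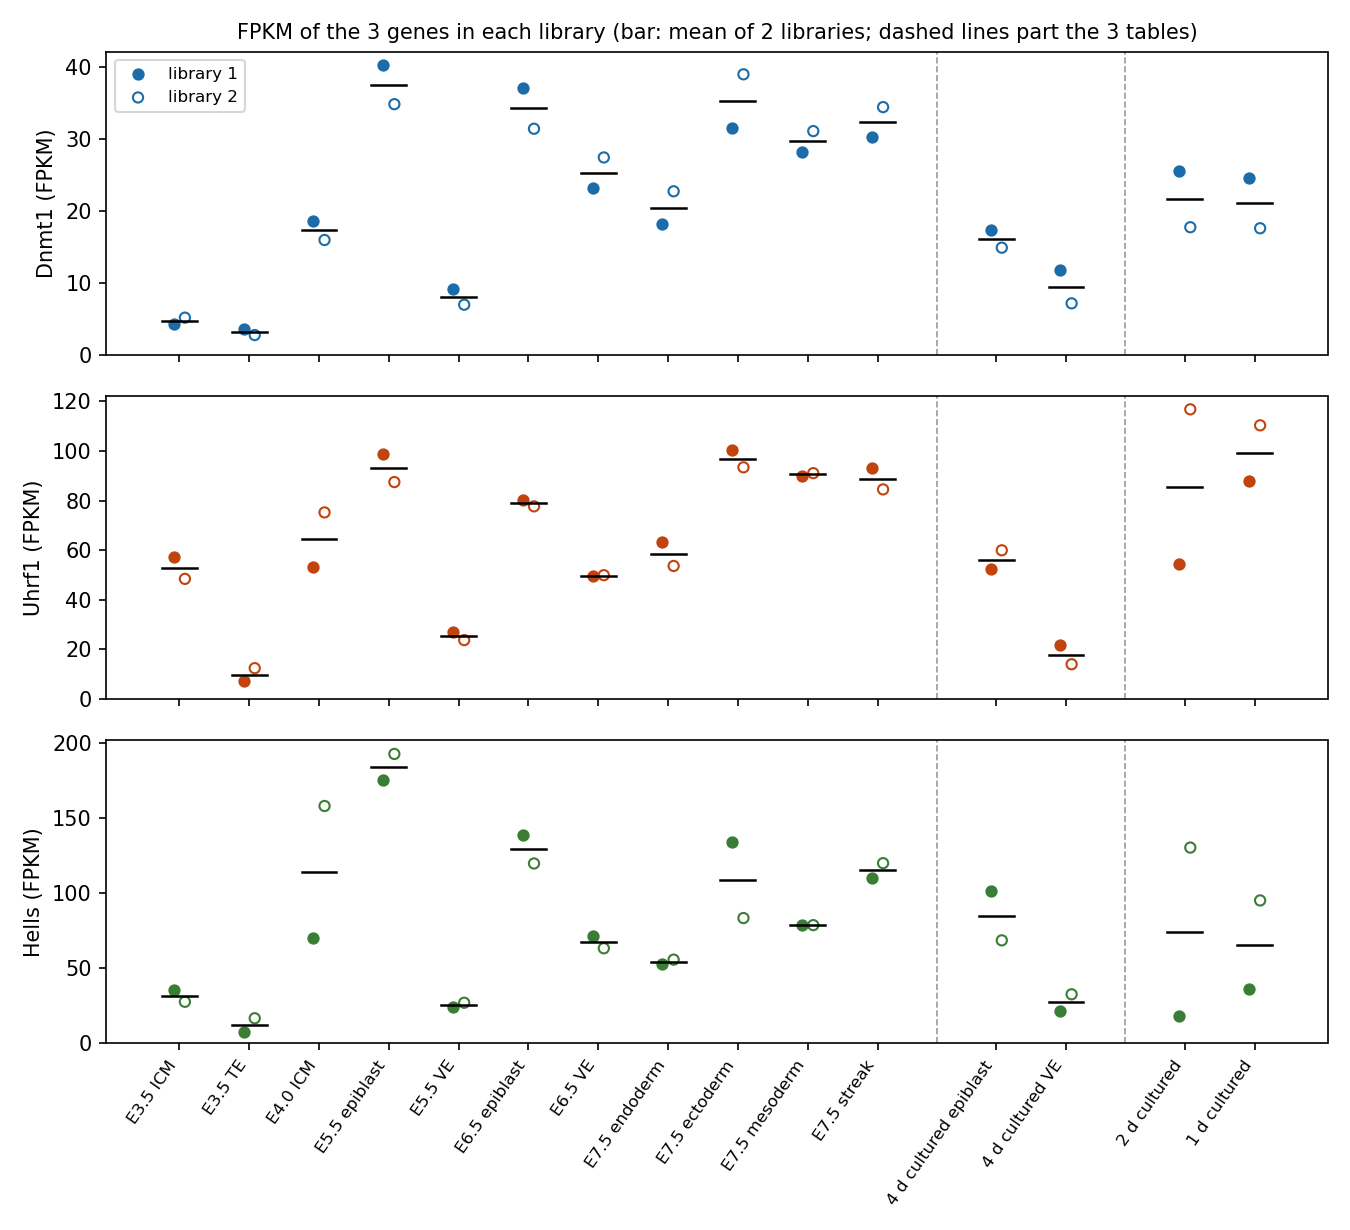
FPKM of Dnmt1, Uhrf1 and Hells in each library (vertical axes, from 0) by tissue, with a bar at the mean of the 2 libraries; dashed lines part the 3 separately made tables. All 3 genes were lowest in E3.5 trophectoderm among tissues grown in the uterus, and Uhrf1 was already at 57.3 and 48.5 FPKM in E3.5 inner cell mass, where Dnmt1 was at 4.22 and 5.16 FPKM.

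Within the blastocyst, the inner cell mass, which gives rise to the embryo, was set against the trophectoderm, the outer layer that founds the placenta. Uhrf1 was higher in inner cell mass by 2.34 on the log2(FPKM+1) scale (95% interval 1.72 to 2.97, adjusted p = 8.02e-06), with no overlap between the libraries. It was the only 1 of the 3 genes called in the fit used for all comparisons here. A call needed a limma adjusted p below 0.05 together with a log2 difference of 1 or more either way, and 9.54% of the 13493 genes tested were called higher in this comparison. Dnmt1 had a difference of 0.45 (-0.12 to 1.02, adjusted p = 0.286) and Hells one of 1.41 (0.16 to 2.66, adjusted p = 0.110). The Dnmt1 libraries of the tissues did not overlap, and neither did those of Hells. A p that misses the threshold does not show that levels were alike, and the interval for Hells reaches differences larger than that of Uhrf1. Hells was called here with array weights, with a replicate block and with only the table concerned, as given under the alternatives below. Its SE of 0.60 was set partly by cultured libraries that differed widely.

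Of 18 genes listed as partners of maintenance methylation, 3 were called higher in inner cell mass and 1 lower, and 1 was higher without either inner cell mass library. Cdca7, which recruits Hells to chromatin, was higher by 2.41 (SE 0.24, adjusted p = 2.6e-07), at 22.6 and 21.6 FPKM in inner cell mass against 3.48 and 3.21 FPKM in trophectoderm. Hdac1, a histone deacetylase, was higher by 1.23 and Trim28, a corepressor for zinc finger proteins, by 1.39. Ehmt2, a histone methyltransferase, was lower (log2 difference -1.11). Among 38 replication genes 10 were called higher and 0 lower, with a median difference of 0.69 against 0.02 over all genes tested. Pold2, a subunit of DNA polymerase delta, was higher by 2.28 and Mcm6, a subunit of the replicative helicase, by 1.22. The count of 10 depended on the scaling and on single libraries: it was 6 after quantile normalization, 1 without the first trophectoderm library, 3 and 5 without the first and second inner cell mass library, and 16 without the second trophectoderm library.

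From E3.5 to E4.0 the inner cell mass gained Dnmt1 but showed no called change in Uhrf1. Dnmt1 was higher at E4.0 by 1.69 (1.12 to 2.25, adjusted p = 0.000147) and Hells by 1.72 (0.47 to 2.98, adjusted p = 0.0421), so 2 of the 3 genes were called, where 15.8% of all genes were called higher. For both genes every E4.0 library lay above every E3.5 library. Uhrf1 differed by 0.26 (-0.36 to 0.89, adjusted p = 0.605), about as much as the median of all genes (0.27), and its libraries overlapped. After quantile normalization within the table, which brings that median to -0.000767, Dnmt1 was still called (1.14, adjusted p = 0.0100), Hells was not (1.38, adjusted p = 0.115), and Uhrf1 stood at -0.08. All calls then split into 1099 higher and 1133 lower in place of 2130 and 648. The call of Hells was also lost when either E3.5 library or the second E4.0 library was left out, with values from 1.14 to 2.30. Summed FPKM of the 7 primitive endoderm markers were 823 and 693 at E4.0, against 203 and 239 at E3.5. The 15 stress and immediate early genes summed to 349 and 304 FPKM at E4.0, against 67.3 and 71.8 FPKM at E3.5, and 9 of the 13 tested were called higher. The part of either in the result was not tested.

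Dppa3, the protein that keeps Uhrf1 off chromatin in the egg, moved the other way. It had 29.5 and 32.1 FPKM in E4.0 inner cell mass, against 1390 and 1259 FPKM in E3.5 inner cell mass, and was called lower (log2 difference -5.38, SE 0.66, adjusted p = 5.8e-06). The ratio of Dppa3 to Uhrf1 within a library was 0.551 and 0.427 in E4.0 inner cell mass, against 24.3 and 26.0 in E3.5 inner cell mass. In E3.5 trophectoderm it was 140.2 and 56.9. In every later tissue grown in the uterus its mean was 0.350 or less. Dnmt3l and Dnmt3a, the cofactor and enzyme of de novo methylation, were higher at E4.0 by 4.14 and 2.62. Dnmt3l stood at 484 and 406 FPKM at E4.0, against 26.4 and 22.3 FPKM at E3.5. Of the partners, 3 of 18 were called higher, close to the 15.8% of all genes, and 0 lower, and 1 was higher after quantile normalization. They were Lig1, the ligase of Okazaki fragments (1.46), Cdca7 (1.19) and Ehmt2 (1.13). The list of 38 replication genes had 14 higher and 1 lower, among the higher Mcm2 (1.65), Mcm5 (1.40), Mcm3 (1.49) and the licensing factor Cdt1 (1.40), and 9 were higher after quantile normalization. Of 20 mitosis genes only 1, Top2a (1.98), was higher, and 1, Cenpa, was lower (-1.13).

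**Figure D2:**
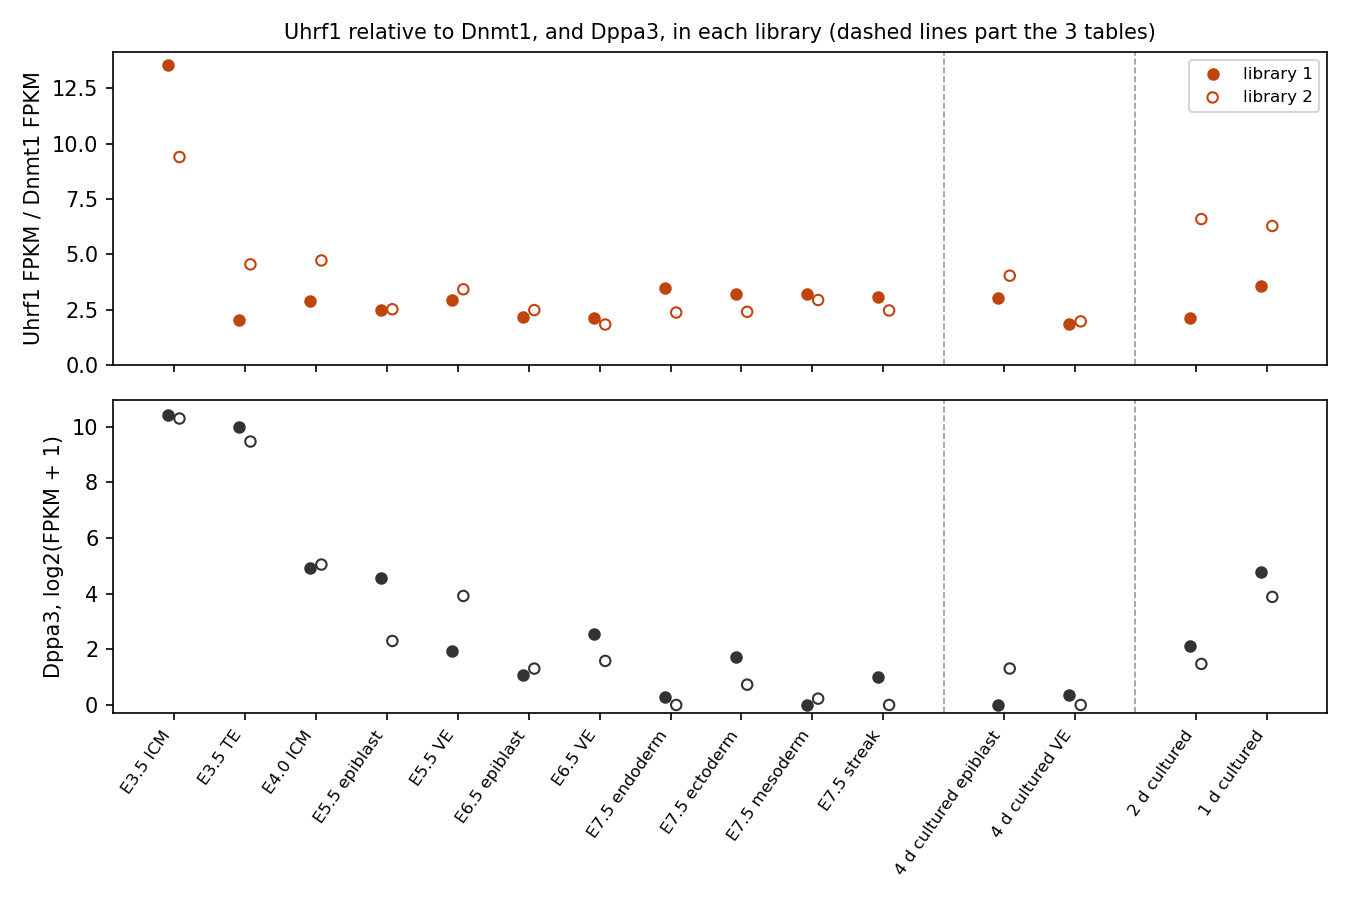
Ratio of Uhrf1 to Dnmt1 FPKM in each library (upper panel) and Dppa3 as log2(FPKM+1) in each library (lower panel), by tissue. E3.5 inner cell mass had ratios of 13.6 and 9.40, above every other library grown in the uterus, and Dppa3 at 1390 and 1259 FPKM.

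Among tissues grown in the uterus the proportion of Uhrf1 to Dnmt1 was highest in E3.5 inner cell mass. Their ratio within a library, which does not depend on scaling to library size, was 13.6 and 9.40 in E3.5 inner cell mass. In the other 10 tissues grown in the uterus the mean ratio lay between 1.98 and 3.80, and single libraries lay between 1.82 and 4.72. The range did not overlap that of E3.5 inner cell mass. The mean ratio of Hells to Uhrf1 was lowest in the same tissue, at 0.617 and 0.570, and highest in E5.5 epiblast, at 1.77 and 2.20, where it overlapped E4.0 inner cell mass, at 1.32 and 2.10.

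After implantation the inner cell mass has parted into the epiblast, which forms the embryo proper, and the visceral endoderm, an epithelium that feeds it. E5.5 epiblast had more Dnmt1 than E4.0 inner cell mass by 1.08 (0.51 to 1.65, adjusted p = 0.00704), and the libraries did not overlap. It was 1 of the 3 genes called, against 8.67% of all genes called higher. Uhrf1 differed by 0.55 (-0.08 to 1.17, adjusted p = 0.226) without overlap, and Hells by 0.80 (-0.46 to 2.05, adjusted p = 0.406), also without overlap. The call for Dnmt1 was lost without the second E4.0 library or the first E5.5 epiblast library, with values from 0.97 to 1.18. Dnmt3b, the main de novo enzyme of the epiblast, was higher by 3.34 and Dnmt3l lower (-2.15). Of the partners 4 of 18 were called higher, namely the PCNA-associated factor listed as 2810417H13Rik (5.27), Cdca7 (1.72), its relative Cdca7l (3.16) and Ehmt1, a histone methyltransferase (1.30). Of 38 replication genes 1 was called higher, Pold2 (1.05), a count of 4 without the second E4.0 library and 0 without any other, and 7 of 20 mitosis genes were higher. All 7 primitive endoderm markers were called lower in E5.5 epiblast, where they summed to 47.4 and 38.9 FPKM, against 823 and 693 FPKM in E4.0 inner cell mass. The stress and immediate early genes summed to 83.9 and 99.1 FPKM in E5.5 epiblast, against 349 and 304 FPKM in E4.0 inner cell mass, and 7 of the 13 tested were called lower. Their part in the result was not tested.

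In E5.5 visceral endoderm all 3 genes were lower than in E4.0 inner cell mass. The log2 difference was -1.02 for Dnmt1 (-1.59 to -0.45, adjusted p = 0.00530), -1.29 for Uhrf1 (-1.92 to -0.67, adjusted p = 0.00178) and -2.0 for Hells (-3.26 to -0.75, adjusted p = 0.0113). No library of visceral endoderm overlapped one of inner cell mass for any of the 3. The count of 3 stands beside 25.7% of all genes called lower here and 9.66% higher. This comparison rested on the scaling. After quantile normalization the values were -0.38, -0.51 and -1.27, with adjusted p of 0.356, 0.165 and 0.105, and the split of all calls was 2075 higher and 2129 lower in place of 1303 and 3473. The Dnmt1 call was also lost without the first E4.0 library or the second visceral endoderm library (-1.19 to -0.84 over the libraries left out), and that of Hells without the second E4.0 library or the first visceral endoderm library (-2.58 to -1.42). In the replication list 32 of 38 genes were called lower and 0 higher, and 22 were lower after quantile normalization. Examples were Mcm6 (-3.03), Mcm4 (-2.70) and, among the partners, Lig1 (-2.03). Of the 18 partners 5 were lower and 3 higher, with 2 lower after quantile normalization and 3 lower without the first visceral endoderm library, the higher ones being 2810417H13Rik (3.23), Uhrf2, a relative of Uhrf1 (1.99), and the histone methyltransferase Suv39h1 (1.58). Of the 13 stress and immediate early genes tested 9 were called lower, and the list summed to 33.4 and 44.0 FPKM in visceral endoderm, against 349 and 304 FPKM in inner cell mass, a part in the result that was not tested.

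At E5.5 epiblast and visceral endoderm differed in all 3 genes. Dnmt1 was higher in epiblast by 2.09 (1.53 to 2.66, adjusted p = 6.71e-06), Uhrf1 by 1.84 (1.21 to 2.46, adjusted p = 6.47e-05) and Hells by 2.80 (1.54 to 4.05, adjusted p = 0.000892). For each gene both epiblast libraries lay above both visceral endoderm libraries. The count of 3 stands beside 27.1% of all genes called higher and 9.6% lower, with a median difference of 0.36 over all genes. After quantile normalization the differences were 1.52, 1.04 and 2.01 with adjusted p of 0.000521, 0.00632 and 0.0115. All 3 were then still called, while the split of all calls became 2342 higher and 2142 lower in place of 3663 and 1295. None of the 3 calls was lost when any 1 of the 4 libraries was left out. Both epiblast libraries had FPKM sums (438472 and 374468) above both visceral endoderm libraries (272055 and 329462), and the part of this in the result was not tested beyond the rescalings.

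Partner genes, which work beside them, were in part higher in epiblast too. Of the 18 partners 9 were called higher in epiblast and 1 lower, with a median of 0.98, beside 27.1% of all genes called higher. After quantile normalization 4 of the 18 were higher, against 2342 of all 13493 genes, so the excess over all genes depended on the scaling. Cdca7 had 185 and 161 FPKM in epiblast, against 9.72 and 14.0 FPKM in visceral endoderm, a difference of 3.78 (SE 0.24, adjusted p = 1.0e-09). Others called higher included Cdca7l (3.32), Lig1 (2.03), 2810417H13Rik (2.04), the acetyltransferase Kat5 (1.84), the Dnmt1-binding corepressor Dmap1 (1.53), Ehmt1 (1.31), the heterochromatin protein Cbx5 (1.10) and the kinase Csnk1d (1.04). Uhrf2 was the 1 partner lower in epiblast (-1.98, SE 0.47, adjusted p = 0.0019), at 1.89 and 2.59 FPKM in epiblast against 11.1 and 12.3 FPKM in visceral endoderm. Pcna, the sliding clamp that binds Dnmt1, differed by 0.91 (adjusted p = 0.022), under the required fold. All 3 de novo genes were higher in epiblast, Dnmt3l by 4.89, Dnmt3a by 4.05 and Dnmt3b by 1.50. Tet1, which oxidises methylated cytosine, was higher by 1.75, and it was the 1 called of 6 genes that remove methylation or protect from it.

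Replication and mitosis genes moved with them. Here 35 of 38 replication genes were called higher in E5.5 epiblast and 0 lower, with a median difference of 2.09, and 26 after quantile normalization. Mcm2 had 206 and 204 FPKM in epiblast, against 19.6 and 22.7 FPKM in visceral endoderm, a difference of 3.22. Mcm3 (3.21), Mcm6 (3.25) and Mcm5 (2.94) were alike in size. Of 20 mitosis genes 14 were called higher and 0 lower, and 9 after quantile normalization. Among them Bub1b differed by 2.85, Plk1 by 2.57 and Top2a by 2.25. The differences of Dnmt1 and Uhrf1 thus lay near the median of the replication list, and that of Hells above it. Of 12 E2F and Rb family genes 3 were higher and 1 lower, and of 15 SNF2 relatives of Hells 3 were higher and 0 lower. Neither count was above the 27.1% of all genes called higher. Of 12 genes of one-carbon metabolism and methyl supply 8 were higher and 0 lower.

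**Figure D3:**
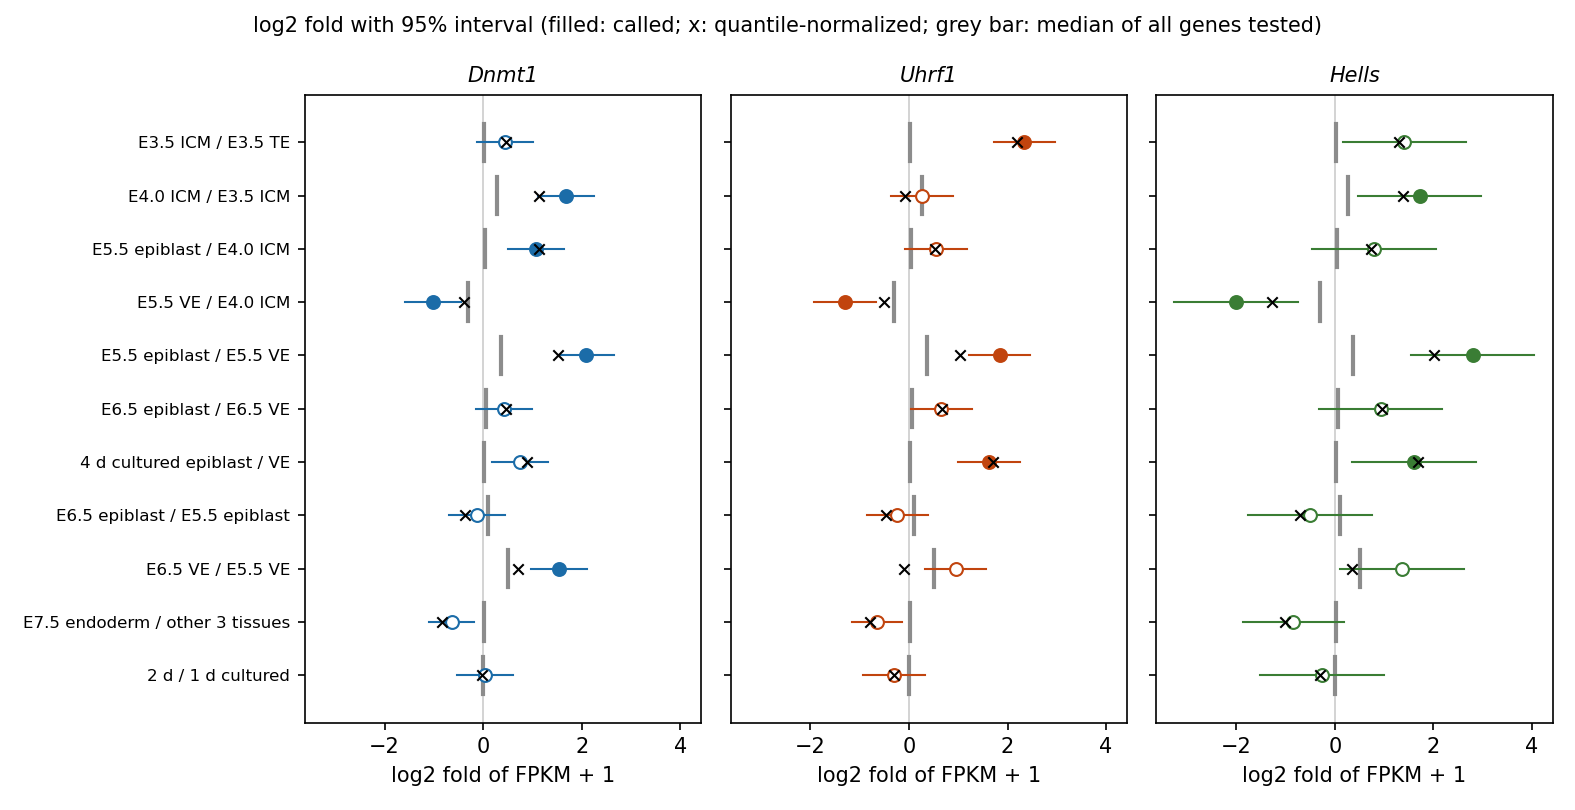
Difference in log2(FPKM+1) for each gene in 11 comparisons, with 95% intervals; filled circles were called, crosses are the values after quantile normalization, and grey bars mark the median of all genes tested. The E5.5 epiblast to visceral endoderm differences of 2.09, 1.84 and 2.80 were called under either scaling. Those of E5.5 visceral endoderm to E4.0 inner cell mass were called only before quantile normalization.

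At E6.5 none of the 3 genes was called between the tissues. The difference of epiblast over visceral endoderm was 0.42 for Dnmt1 (-0.15 to 0.99, adjusted p = 0.330), 0.66 for Uhrf1 (0.03 to 1.28, adjusted p = 0.141) and 0.93 for Hells (-0.32 to 2.18, adjusted p = 0.331). The libraries of the tissues did not overlap for any of the 3, but 0 of the 3 were called, where 6.95% of all genes were called higher. Cdca7 was still higher in epiblast, by 2.44, and so was Cdca7l, by 2.38, and Suv39h1 was lower (-1.77). Replication genes called higher numbered 9 of 38, among them Mcm3 (1.46) and Mcm2 (1.40), but 4 without the first epiblast library, 5 without the first visceral endoderm library and 7 without either of the others. Of the 18 partners 2 were higher, and 1 with any library left out. Dnmt3a (3.13) and Dnmt3b (2.23) were higher in epiblast.

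Visceral endoderm itself was then compared between the stages. Dnmt1 was higher in E6.5 than in E5.5 visceral endoderm by 1.54 (0.97 to 2.11, adjusted p = 0.000445). Uhrf1 differed by 0.95 (0.32 to 1.57, adjusted p = 0.0211), just under the required fold, and Hells by 1.36 (0.10 to 2.61, adjusted p = 0.0916). Hells was called in some of the alternative fits, given below. For all 3 genes the E6.5 libraries lay above the E5.5 libraries. The 1 call stands beside 24.7% of all genes called higher and 2.49% lower, and a median of 0.50 over all genes. After quantile normalization Dnmt1 was no longer called (0.70, adjusted p = 0.135), Uhrf1 stood at -0.09 and Hells at 0.35, and all calls split into 543 higher and 948 lower in place of 3334 and 336. Although 30 of 38 replication genes were called higher, the count was 5 after quantile normalization. Of 20 mitosis genes 14 were higher, but 3 after quantile normalization and 7 without the first E5.5 library. The 6 epiblast markers, of which 1 was called higher, summed to 397 and 389 FPKM in E6.5 visceral endoderm, against 121 and 181 FPKM in E5.5 visceral endoderm. The 8 trophectoderm markers, of which 3 were called higher, summed to 1003 and 1211 FPKM in E6.5 visceral endoderm, against 401 and 399 FPKM in E5.5 visceral endoderm. Pou5f1, which marks epiblast, had 20.9 and 2.10 FPKM at E6.5, against 0.277 and 0.490 FPKM at E5.5. Their part in the result was not tested. The epiblast itself showed 0 of the 3 genes called from E5.5 to E6.5, with log2 differences of -0.13 for Dnmt1 (-0.70 to 0.44), -0.23 for Uhrf1 (-0.86 to 0.39) and -0.51 for Hells (-1.76 to 0.74), where 0.978% of all genes were called either way and their median was 0.10.

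The difference between stages was tested directly, as epiblast minus visceral endoderm at E6.5 less the same at E5.5. It was -1.67 for Dnmt1 (-2.48 to -0.87, adjusted p = 0.0197), which was called, where 5.28% of all genes were called lower. It was -1.18 for Uhrf1 (-2.07 to -0.29, adjusted p = 0.0964) and -1.87 for Hells (-3.64 to -0.10, adjusted p = 0.181), neither called. Both were called in some of the alternative fits, given below. The median over all genes was -0.41, and after quantile normalization Dnmt1 had -1.06 (adjusted p = 0.183), while all calls split into 272 higher and 124 lower in place of 107 and 712. The Dnmt1 call was lost in 5 of 8 fits with a library left out, namely without either E5.5 epiblast library, the second E6.5 epiblast library or either E6.5 visceral endoderm library, with values from -1.85 to -1.50. Of 38 replication genes 14 were called lower, among them Mcm5 (-1.93) and Mcm2 (-1.81), and of 20 mitosis genes 7. Those counts were 2 and 0 after quantile normalization. Both counts rose without the second E5.5 visceral endoderm library and fell without any other single library, so they depended strongly on single libraries.

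At E7.5, when the germ layers form, 0 of the 3 genes were called in any of 5 comparisons. Endoderm was lowest for each gene. Against the mean of ectoderm, primitive streak and mesoderm it differed by -0.64 for Dnmt1 (-1.10 to -0.18, adjusted p = 0.0542), -0.65 for Uhrf1 (-1.16 to -0.14, adjusted p = 0.0807) and -0.85 for Hells (-1.87 to 0.18, adjusted p = 0.305), where 1.93% of all genes were called lower. All calls there split into 1384 higher and 260 lower, or 1078 and 485 after quantile normalization. No endoderm library overlapped one of the other 3 tissues, for any of the 3 genes. Cdca7 was lower in endoderm (-1.11, SE 0.19, adjusted p = 0.00023), as was Pold1 (-1.14), a polymerase subunit and the 1 called of 38 replication genes. Endoderm still carried the visceral endoderm markers, which summed to 9169 and 8573 FPKM in it, and those of definitive endoderm at 2212 and 2114 FPKM. Their part in the result was not tested. Ectoderm differed from E6.5 epiblast by 0.04 for Dnmt1 (-0.53 to 0.60), 0.29 for Uhrf1 (-0.34 to 0.92) and -0.28 for Hells (-1.53 to 0.97), where 1.07% of all genes were called, 67 higher and 78 lower (108 and 56 after quantile normalization), and the median of all genes was -0.15. Primitive streak differed from E6.5 epiblast by -0.08, 0.16 and -0.16 in the same gene order, where 3.74% of all genes were called. Mesoderm differed from primitive streak by -0.12, 0.03 and -0.54, where 3.38% were called, and endoderm from E6.5 visceral endoderm by -0.30, 0.23 and -0.30, where 4.26% were called. The ratio of Dnmt3b to Dnmt1 was lower in every E7.5 library than in E6.5 epiblast. It was 1.03 and 1.08 in endoderm, 2.90 and 0.957 in ectoderm, 0.509 and 0.359 in mesoderm and 1.42 and 1.60 in primitive streak, against 4.87 and 5.36 in E6.5 epiblast. In E6.5 visceral endoderm it was 1.69 and 1.24, nearer to endoderm than the epiblast was.

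After 4 days of culture Uhrf1 and Hells were higher in epiblast than in visceral endoderm. Dnmt1 stood at 17.4 and 14.9 FPKM in cultured epiblast, against 11.8 and 7.15 FPKM in cultured visceral endoderm. Uhrf1 stood at 52.3 and 60.0 FPKM in cultured epiblast, against 21.7 and 14.0 FPKM in cultured visceral endoderm. Hells stood at 101.0 and 68.5 FPKM in cultured epiblast, against 21.7 and 32.6 FPKM in cultured visceral endoderm. The tissues did not overlap for any of the 3. Uhrf1 was higher in epiblast by 1.62 (1.00 to 2.25, adjusted p = 0.000366) and Hells by 1.61 (0.35 to 2.86, adjusted p = 0.0498), so 2 of the 3 genes were called, where 10.8% of all genes were called higher. The call for Hells lay at the threshold and was lost without any 1 of the 4 libraries, with values from 1.32 to 1.89. Dnmt1 differed by 0.74 (0.18 to 1.31, adjusted p = 0.0452), under the required fold. The first cultured visceral endoderm library held 286 FPKM of epiblast markers and 350 FPKM of primitive streak markers, against 21.9 and 36.0 FPKM in the second. Without that first library Dnmt1 differed by 1.07 and was called (adjusted p = 0.0173).

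Of the 18 partners 7 were higher in cultured epiblast and 1 lower, and with a library left out the count ran from 4, without the first epiblast library, to 6, without the first visceral endoderm library. They included Cdca7 (2.37), 2810417H13Rik (4.97), Cdca7l (4.40), Pcna (1.07), Lig1 (1.03), Hdac1 (1.29) and Trim28 (1.35), and Suv39h1 was lower (-2.10). Of 38 replication genes 16 were higher and 0 lower, among them Mcm5 (1.78) and Mcm2 (1.77), and 11 to 14 were higher with a library left out. Dnmt3b had 602 and 596 FPKM in cultured epiblast, against 157 and 57.8 FPKM in cultured visceral endoderm, and was higher by 2.64. Its ratio to Dnmt1 was 34.6 and 40.03 in cultured epiblast, against 13.4 and 8.09 in cultured visceral endoderm. In the uterus single libraries of that ratio lay between 0.359 and 9.88, but the tables were made separately and a level or ratio set across them was not tested. The contrast of tissues after culture less that at E6.5, each taken within its table, was 0.32 for Dnmt1 (-0.48 to 1.13), 0.97 for Uhrf1 (0.08 to 1.85, adjusted p = 0.607) and 0.68 for Hells (-1.10 to 2.45), with 0 of 3 called and 0.437% of all genes called either way.

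In embryos cultured for 2 days against 1 day 0 of the 3 genes were called, where 6.46% of all genes were called. Dnmt1 had 25.5 and 17.7 FPKM after 2 days, against 24.6 and 17.6 FPKM after 1 day, a difference of 0.03 (-0.54 to 0.60). Uhrf1 had 54.5 and 116.8 FPKM after 2 days, against 87.8 and 110.4 FPKM after 1 day, a difference of -0.30 (-0.92 to 0.33). Hells had 18.0 and 130.3 FPKM after 2 days, against 35.9 and 95.1 FPKM after 1 day, a difference of -0.26 (-1.51 to 1.00). The libraries overlapped for each gene, and in Hells the spread within each day was several times the difference between days. The 9 inner cell mass markers summed to 75.8 and 449 FPKM after 2 days, against 432 and 379 FPKM after 1 day, while trophectoderm markers summed to 4512 and 2327 FPKM after 2 days, against 2204 and 1917 FPKM after 1 day. Of the 2-day libraries the first was low in both Hells and inner cell mass markers, whereas of the 1-day libraries the one with less Hells had slightly more of those markers. Their part in the result was not tested. Without the second 2-day library Hells was called lower after 2 days (-1.65, adjusted p = 0.0475), and its value ran up to 1.14 with other libraries left out.

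Across the 11 tissues grown in the uterus the 3 genes kept close to one another, as a description over group means of log2(FPKM+1). Pearson's r was 0.853 between Dnmt1 and Uhrf1, 0.926 between Dnmt1 and Hells, and 0.913 between Uhrf1 and Hells. Over the 8 tissues from E5.5 on, it was 0.952, 0.943 and 0.894 in that order. The means share their libraries and scaling, and they differ in stage and preparation. The genes most like Dnmt1, of 4684 with a mean of at least 10 FPKM, were Top2a, the topoisomerase that untangles replicated chromosomes (r = 0.991), Raver1 (0.991), Ddx54 (0.989), Ddx24 (0.988), Vars (0.987) and Nup155 (0.987). Those most like Uhrf1 were Trp53, the p53 tumour suppressor (0.993), Parp1 (0.968), Zfp105 (0.966), Apex1 (0.964), Id3 (0.964) and Pold2 (0.963). Those most like Hells were D2Wsu81e (0.989), Dus3l (0.981), Ddx46 (0.980), Nol10 (0.980), the chromatin assembly factor subunit Chaf1b (0.980) and Gnl3l (0.978). Against the replication list the median r was 0.836 for Dnmt1, 0.817 for Uhrf1 and 0.838 for Hells. In the same gene order it was 0.859, 0.726 and 0.723 against the mitosis list and 0.790, 0.676 and 0.741 against the partners. Over all other genes tested the median r was 0.385, 0.329 and 0.323.

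The 3 genes did not keep a fixed proportion to the replicative helicase. The mean FPKM of Mcm2 to Mcm7 in the same library served as the measure. Uhrf1 stood at 0.954 and 0.972 of it in E3.5 inner cell mass and at 1.30 and 0.987 in E5.5 visceral endoderm, whereas the means of the other 9 tissues lay between 0.347 and 0.590. Dnmt1 stood at 0.0702 and 0.103 in E3.5 inner cell mass and at 0.444 and 0.289 in E5.5 visceral endoderm. Its mean was 0.300 in E6.5 visceral endoderm and 0.211 in E5.5 epiblast. Hells stood at 1.17 and 1.12 in E5.5 visceral endoderm, at 1.02 and 1.04 in E5.5 epiblast and at 0.394 and 0.401 in E3.5 trophectoderm. E5.5 visceral endoderm thus had the highest mean proportion of all 3 genes, although its levels in FPKM were among the lowest. E3.5 inner cell mass had a high proportion of Uhrf1 with the lowest mean proportion of Dnmt1.

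**Figure D4:**
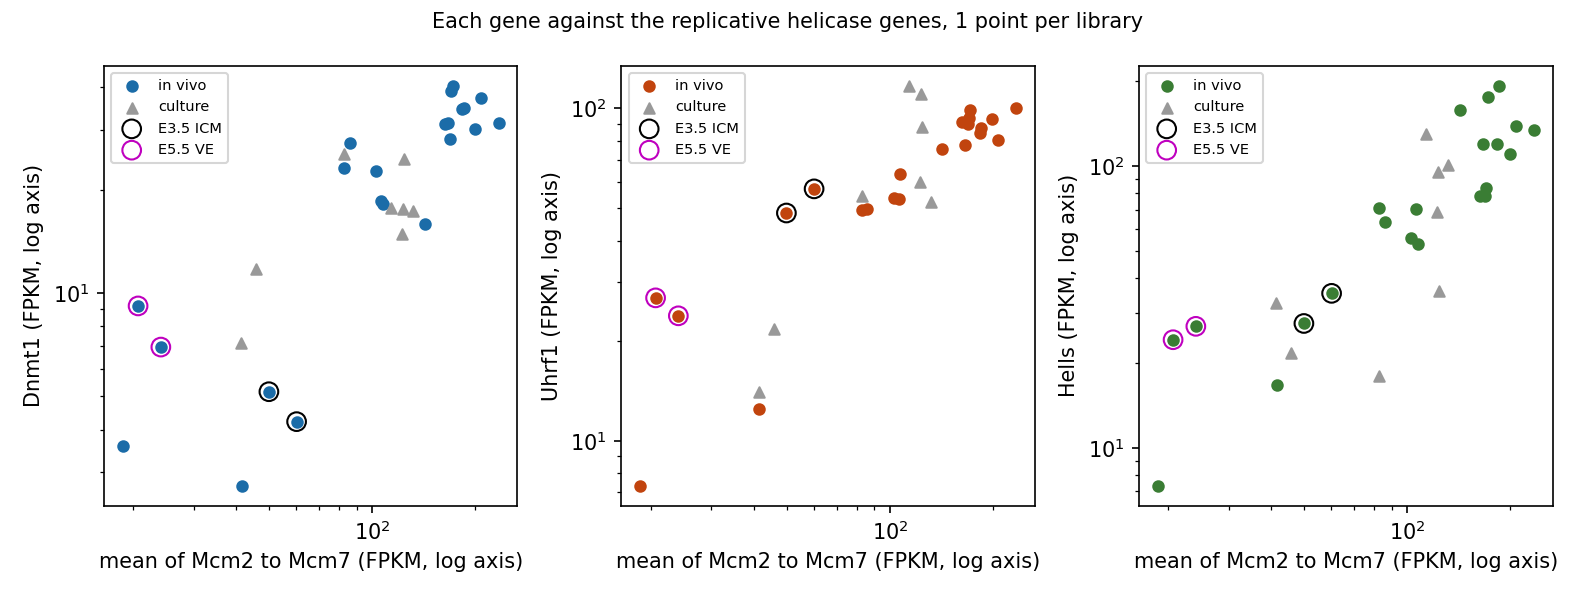
FPKM of each gene against the mean FPKM of Mcm2 to Mcm7 in the same library, both axes on a log scale; points are libraries, rings mark E3.5 inner cell mass (black) and E5.5 visceral endoderm (magenta), and grey triangles are cultured embryos. Uhrf1 lay at 0.954 and 0.972 of the helicase mean in E3.5 inner cell mass and at 1.30 and 0.987 in E5.5 visceral endoderm, above the other tissues grown in the uterus.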

How the data were processed

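RNA-seq libraries were made by the Smart-Seq2 protocol, per the labels' protocols. The authors deposited FPKM per gene. TopHat2 2.0.11, Cufflinks 2.0.2 and the mm9 genome are named in the submitters' processing notes; counts and depth per library are not given in the sources used here.

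The table of tissues grown in the uterus had 27 symbols turned into dates, and those lines were dropped. Deposited values no larger than 1e-06 became 0. The 3 tables have 22563 genes in common, and 13493 of them reached 1 FPKM in 2 libraries or more. These entered limma 3.58.1 (R 4.3.3) as log2(FPKM+1). The fit held 15 groups of 2 libraries, took account of the mean-variance trend and left 15 residual degrees of freedom. The pseudocount of 1 understates changes of low genes. A call needed a Benjamini-Hochberg adjusted p, taken over all genes tested, below 0.05 together with a log2 difference of 1 or more either way. Intervals are at 95%. Every contrast stays within a table, except the difference between culture and E6.5, which sets a contrast of one table against a contrast of another. The pipeline was tested on simulated data.

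The 3 genes, the lists and the markers were chosen with earlier results of these data known. Named genes were the 3 members in every comparison, up to 4 called members of a list by adjusted p, any partner, de novo or removal gene, and the 6 genes most correlated with each member among those with a mean of at least 10 FPKM, passing over symbols of the Gm, Rik, Mir, Snor, LOC, AI and BC kinds. Mcm2 and Lig1 are also named outside that rule in places, after their values were seen. Alternatives tried were each library left out, quantile normalization, array weights, a replicate block, fits on only the groups compared or only the table concerned, FPKM rescaled to 1 common sum (for the levels), no filter, a filter of 5 FPKM and a pseudocount of 0.1. List counts under quantile normalization and with a library left out, and the folds of highest over lowest tissue with a library left out, were added after seeing the data. Other steps used Python 3.11.15 with pandas 2.3.3 and matplotlib 3.10.9. Promoter windows came from RefSeq (GRCm38.p6).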

Additional observations from a re-analysis of the deposited data

Results flagged for a closer look

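The epiblast to visceral endoderm difference of Dnmt1 changed between stages: at E6.5 it was smaller than at E5.5 by a log2 difference of -1.67 (SE 0.39, adjusted p = 0.0197). It stands here because the test of the difference between stages passed the threshold. Dnmt1 stood at 37.1 and 31.4 FPKM in E6.5 epiblast against 23.2 and 27.4 FPKM in E6.5 visceral endoderm, and at 40.3 and 34.8 FPKM in E5.5 epiblast against 9.18 and 6.96 FPKM in E5.5 visceral endoderm. The value was -1.06 (adjusted p = 0.183) after quantile normalization. With a library left out it ran from -1.85 to -1.50, and the call was not kept in every such fit. The change was not particular to Dnmt1: Hells had -1.87 and Uhrf1 -1.18, not called here but called in some alternative fits. The median over all genes was -0.41.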

How the results depend on the processing

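Every direct comparison kept the sign of each called gene under every alternative run. The replicate block called Hells in 2 further comparisons, E3.5 inner cell mass over trophectoderm (1.41, adjusted p = 0.0178) and E6.5 over E5.5 visceral endoderm (1.36, adjusted p = 0.0160), and changed no other call. Over 55 pairs of tissues the deviations of same-numbered libraries had a median r of 0.00559 (range -0.268 to 0.438), with 9 pairs over 0.1. Most pairs thus did not deviate together, but a median cannot show whether some tissues were paired. The same Hells values passed with array weights (adjusted p = 0.0253 and 0.00327) and with only the table concerned (0.00687 and 0.00643), the second also with only the groups compared (0.0312). The change of the epiblast to visceral endoderm difference from E5.5 to E6.5 passed for Uhrf1 (-1.18) and Hells (-1.87) with array weights (0.00716 and 0.00724), only the table (0.0291 and 0.0252) and only the groups (0.0232 and 0.0196). Fits on fewer samples lost calls: after 4 days of culture Uhrf1 (1.62) and Hells (1.61) with either smaller set (0.0517 and 0.0704), and, with only the groups compared, Hells at E4.0 over E3.5 (1.72, 0.0991), Dnmt1 in E5.5 epiblast over E4.0 (1.08, 0.0551), and Dnmt1 (-1.02, 0.0619) and Hells (-2.0, 0.0686) in E5.5 visceral endoderm over E4.0. Hells at E4.0 over E3.5 was lost with no filter (1.72, 0.0731), as was cultured Hells (1.61, 0.0919), which was lost too with a pseudocount of 0.1 (1.64, 0.0551). Quantile normalization turned the sign of uncalled values for Uhrf1 at E4.0 over E3.5 (-0.080) and in E6.5 over E5.5 visceral endoderm (-0.092), and for Dnmt1 after 2 days over 1 day of culture (-0.030), and ended calls of Hells at E4.0 over E3.5 (1.38), of Dnmt1 in E6.5 over E5.5 visceral endoderm (0.70), of Dnmt1, Uhrf1 and Hells in E5.5 visceral endoderm over E4.0 (-0.38, -0.51 and -1.27) and of the stage difference of Dnmt1 (-1.06); the cause was not tested.

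With single libraries left out, values that changed call or sign ran from 1.14 to 2.30 for Hells at E4.0 over E3.5, 0.97 to 1.18 for Dnmt1 in E5.5 epiblast over E4.0, -1.19 to -0.84 for Dnmt1 and -2.58 to -1.42 for Hells in E5.5 visceral endoderm over E4.0, 1.32 to 1.89 for Hells and 0.42 to 1.07 for Dnmt1 in cultured epiblast over visceral endoderm, -1.85 to -1.50 for the stage difference of Dnmt1, and -1.65 to 1.14 for Hells after 2 days over 1 day. Uncalled values near 0 that changed sign ran from -0.11 to 0.19 for Dnmt1 and -0.62 to 0.059 for Hells in ectoderm over E6.5 epiblast, -0.20 to 0.037 for Dnmt1 in primitive streak over E6.5 epiblast, -0.039 to 0.098 for Uhrf1 in mesoderm over primitive streak, -0.22 to 0.28 for Dnmt1 and -0.84 to 0.24 for Uhrf1 after 2 days over 1 day, and -0.0028 to 0.65 for Dnmt1 in the culture less E6.5 difference. A lone remaining library was assumed to vary like the other groups. Depth is unknown for every library, 2 libraries a tissue limit precision, and the SE of Hells (0.60) was set partly by cultured libraries that differed widely.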

Other observations

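Some partners of maintenance methylation were not distributed as Dnmt1, Uhrf1 and Hells were. Suv39h1, a histone methyltransferase of silent chromatin, had 22.5 and 19.6 FPKM in E6.5 epiblast, against 69.6 and 78.6 FPKM in E6.5 visceral endoderm, its highest level among the tissues grown in the uterus. It was lower in the epiblast by a log2 difference of -1.77 (SE 0.55, adjusted p = 0.027). Uhrf2, a relative of Uhrf1 that does not replace it in maintenance, had 18.3 and 19.6 FPKM in E7.5 primitive streak, against 7.35 and 4.06 FPKM in E6.5 epiblast, a log2 difference of 1.62 (SE 0.47, adjusted p = 0.054) that was not called. The PCNA-associated factor 2810417H13Rik was under 1 FPKM in every library of E3.5 and E4.0, and had 135 and 136 FPKM in E7.5 ectoderm. Usp7, a deubiquitylase that binds Dnmt1 and Uhrf1, had 24.7 and 38.8 FPKM in E4.0 inner cell mass and 7.32 and 5.82 FPKM in E7.5 mesoderm, which were not compared directly. Between E7.5 endoderm and E6.5 visceral endoderm Cdca7 was higher by 1.14 (SE 0.24, adjusted p = 0.0042), with 86.9 and 77.5 FPKM in endoderm against 41.4 and 32.6 FPKM in visceral endoderm, and it was the 1 partner of 18 called. These genes were singled out after their values were seen.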
